A study of Homo sapiens with 9 samples.

Results

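COR-L279 is a long-established line grown from human small cell lung cancer (SCLC). Its labels place it in SCLC-N, the subtype in which the neurogenic transcription factor NEUROD1 leads. The values below describe this line without drug treatment. Only the 3 libraries from cells given DMSO, the solvent control, for 24 h were used, out of 9 libraries in the series. No level is given for the other 6 libraries, from cells given the BET bromodomain inhibitor JQ1. They enter the normalized counts only through the scaling of libraries and the choice of genes, which rest on all 9 libraries. All 3 libraries are labelled as wild type in genotype and as biological replicates, and the cells grew in RPMI medium with 10% heat-inactivated fetal bovine serum. Total RNA was sequenced from stranded libraries. A cell line lacks the stroma, vessels and immune cells of a tumour, and this is 1 line, so n = 3 counts libraries of the line and not tumours. A level in a bulk culture cannot tell apart fewer cells with the transcript and less of it per cell.

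SCLC is a fast-dividing carcinoma of the airway with features of neuroendocrine cells, which make peptides and amines, pack them into dense-core granules and release them when calcium enters. Its tumours are sorted by the transcription factor that leads: NEUROD1 in a neuroendocrine form, POU2F3 in a form like the chemosensory tuft cell, and a set low in these in which YAP1 has been studied. Loss of the RB1 tumour suppressor is a hallmark of the disease, and high expression of MYC, MYCL or MYCN is common. INSM1, a zinc finger repressor, is used in pathology as a neuroendocrine marker, as is chromogranin A (CHGA), an acidic protein of granule cores. ISL1 is a LIM homeodomain factor of islet cells, motor neurons and other neuroendocrine cells.

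Promoter sequences are shown for the markers whose entries were at hand, because NEUROD1, ISL1 and CHGA mark the neuroendocrine identity described below. Each is the 250 bases before the annotated start of the gene, printed 5′ to 3′ on the gene's own strand, from RefSeq on build GRCh38.p14. Capitals mark the motifs searched on both strands. They are the TATA box TATAAA, its related form TATATAA, the cyclic AMP response element TGACGTCA, the E-box CAGATG and the E-box CAGCTG. E-boxes are the kind of site that basic helix-loop-helix (bHLH) factors such as NEUROD1 bind. The second TATA form and the response element were added after the sequences had been seen.
NEUROD1 (chr2:181680518-181680767, minus strand): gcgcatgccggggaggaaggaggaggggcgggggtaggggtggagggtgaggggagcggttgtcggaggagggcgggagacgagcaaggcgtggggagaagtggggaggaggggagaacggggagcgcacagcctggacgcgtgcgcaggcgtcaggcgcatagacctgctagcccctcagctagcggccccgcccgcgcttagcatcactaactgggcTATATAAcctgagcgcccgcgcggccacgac
ISL1 (chr5:51383198-51383447, plus strand): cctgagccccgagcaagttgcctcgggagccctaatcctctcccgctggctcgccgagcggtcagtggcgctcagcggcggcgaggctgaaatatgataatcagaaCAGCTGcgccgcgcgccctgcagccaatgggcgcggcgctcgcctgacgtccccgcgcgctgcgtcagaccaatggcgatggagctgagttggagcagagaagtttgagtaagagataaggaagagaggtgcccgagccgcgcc
CHGA (chr14:92922900-92923149, plus strand): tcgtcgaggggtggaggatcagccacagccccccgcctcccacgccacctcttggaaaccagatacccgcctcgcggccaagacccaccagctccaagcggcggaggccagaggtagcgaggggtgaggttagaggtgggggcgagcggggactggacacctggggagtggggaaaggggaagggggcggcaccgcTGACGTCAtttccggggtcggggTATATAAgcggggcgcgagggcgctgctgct
The NEUROD1 window held TATATAA with its first base 31 bases before the start, and the CHGA window held the same letters at 31 bases. The CHGA window also held TGACGTCA, from 54 bases before the start. The ISL1 window held 1 CAGCTG, from 144 bases before the start. Of 27305 promoter windows of the same length, 2.56% held TATATAA. The cyclic AMP response element was found in 1.77% of them, the E-box of the ISL1 window in 13.8%, the other E-box in 12.2% and the TATA box in its first form in 11.1%. The last 2 were not among the letters of these 3 windows. A match is a description of letters and not a measured site.

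The libraries were deep. Replicates 1, 2 and 3 held 67520035, 88482001 and 73237162 reads in genes, of which mitochondrial transcripts took 3.22% to 3.57% and ribosomal protein genes 5.08% to 5.39%. Reads were spread over many genes: the 10 genes with the most reads held 4.79% of them, the first 1000 held 49.2%, and it took 1044 genes to reach 50%. Levels below are FPKM, fragments scaled for transcript length and library size, because this unit lets genes be compared. They are given in the order of replicates 1, 2 and 3, or as a mean ± SD with n = 3. A gene listed at 0 had less than 0.005 FPKM, since the values carry 2 decimals.

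Of 19250 nuclear protein-coding genes, 12218 (63.5%) had a mean of 1 FPKM or more, the level used here to call a gene expressed. The median over all of them was 4.75 FPKM, and over the expressed genes it was 13.8 FPKM. At the top, 979 genes reached 100 FPKM or more and 6319 lay between 10 and 100, while 2378 were listed at 0 in all 3 libraries. Olfactory receptor genes, whose known role is in the nose, gave a floor: of 354 such genes, 0% reached 1 FPKM, 317 were at 0 throughout and the highest, OR13A1, had a mean of 0.56 FPKM. In the histogram of levels the olfactory receptors fill the lowest classes and the protein-coding genes spread over all of them.

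**Figure D1:**
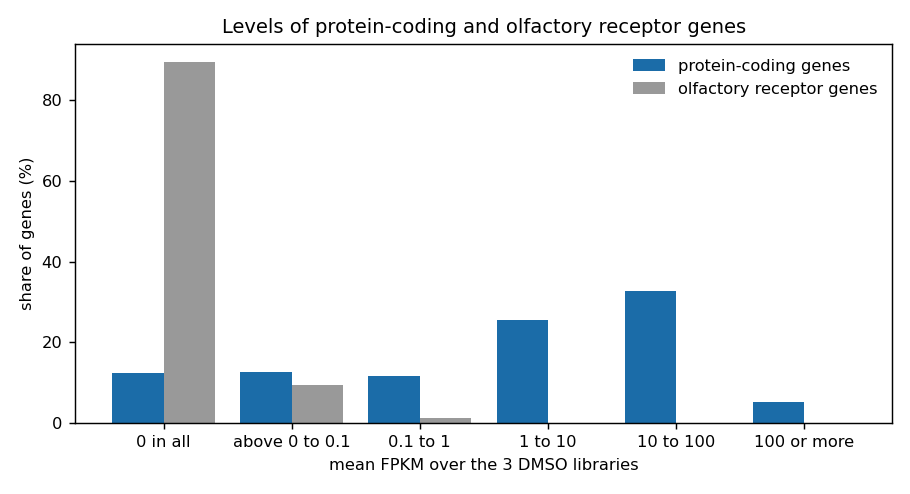
Share of genes in % (vertical axis) by class of mean FPKM over the 3 DMSO libraries (horizontal axis), for 19250 protein-coding and 354 olfactory receptor genes. Of the olfactory receptors 89.5% were at 0 throughout, against 12.4% of the protein-coding genes, and none of the 354 reached 1 FPKM.

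The most abundant messages were those of metabolism, the cytoskeleton and translation. The 12 highest protein-coding genes were GAPDH, a glycolytic enzyme, at 4571 FPKM, TMSB4X, which binds actin monomers, at 4293, the ribosomal protein genes RPS2 (4022), RPL37 (3401), RPL37A (2796), RPL7A (2506) and RPS27 (2458), the elongation factor EEF1A1 (3515), the actins ACTB (3306) and ACTG1 (3304), and the alpha-tubulins TUBA1A (2587) and TUBA1B (2506). Of the 50 highest, 30 were ribosomal protein genes. TUBA1A and TUBA1B are near-identical copies, as are many ribosomal protein genes and their pseudogenes, so the split of reads between such copies is uncertain. Behind them stood GNAS, the stimulatory G protein subunit that couples hormone receptors to cyclic AMP, at 1903 FPKM, STMN1, a microtubule regulator, at 1223 FPKM, and UCHL1, a ubiquitin hydrolase of neurons, at 1162 FPKM. GNAS and STMN1 were chosen after their values were seen.

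The replicates lay close together. Over 12208 protein-coding genes with at least 1 FPKM and a normalized read count, the median SD of log2(normalized count + 1) was 0.0435. The value expected from counting alone was 0.0287. The first is a median of SDs over 3 libraries, which tends to fall below the SD it estimates, so the 2 values are not directly comparable. The spread fell with the level, from 0.0667 between 1 and 10 FPKM to 0.0347 between 10 and 100 and 0.0284 at 100 or more. Between pairs of libraries 13 to 21 of these genes differed by 2-fold or more, and chi-square per degree of freedom was 3.87 to 7.56, so the libraries differed by more than counting error and none was a copy of another. The SD of each marker was under the median of its level class, 0.0347 for ISL1 and 0.0284 for the others. The SDs were 0.0035 for MYC, 0.0084 for ISL1, 0.0181 for NEUROD1, 0.0206 for INSM1 and 0.0266 for CHGA, the last close to its class median. Among genes with at least 100 normalized counts the largest SDs belonged to SULT1A4 (1.36), CTD-2369P2.12 (1.26), ZACN (1.05), MINOS1-NBL1 (0.975), AC005280.1 (0.889), BOLA2 (0.859), POTEE (0.837), RSC1A1 (0.797), an entry named ZMYM6 (0.762) and PLA2G4B (0.741). SULT1A4 and BOLA2 have near-identical copies and MINOS1-NBL1 is a read-through of 2 neighbouring genes, so their split of reads is uncertain.

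**Figure D2:**
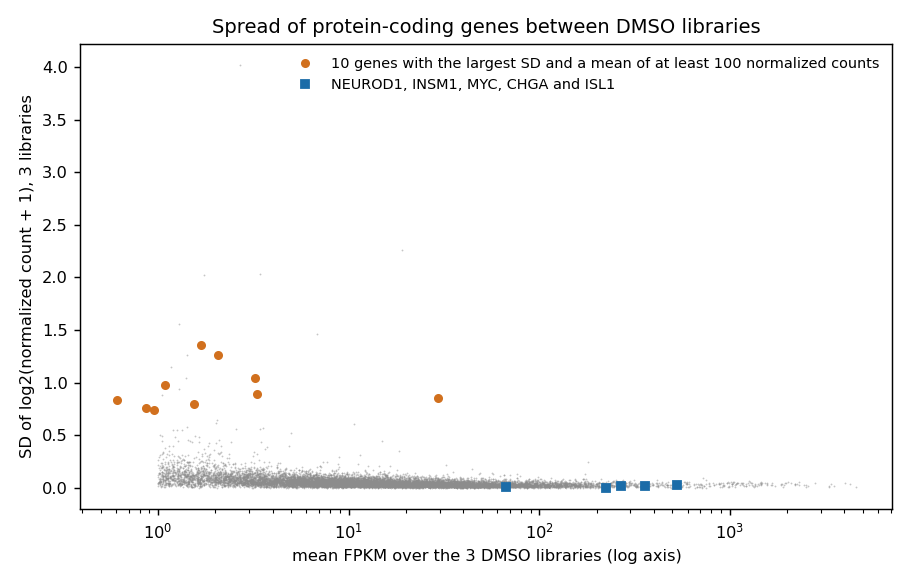
SD of log2(normalized count + 1) over the 3 DMSO libraries (vertical axis) against mean FPKM (horizontal log axis) for 12208 expressed protein-coding genes, each a grey point. Squares mark NEUROD1, INSM1, MYC, CHGA and ISL1, all under 0.03, and circles the 10 genes with the largest SD at 100 or more normalized counts, including some under 1 FPKM, at 0.741 to 1.36.

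Identity, lineage, receptors and the cell cycle are described below through 29 gene lists. They hold 1000 measured genes, of which 560 reached 1 FPKM and 116 were at 0 in all 3 libraries. PECAM1 and CD24 matched no entry. Shares of expressed members are to be read against the 63.5% of all protein-coding genes. The members with the highest levels and those listed at 0 are named by rule, and every other member named was chosen after its values were seen.

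Among regulators that sort SCLC, NEUROD1 stood far above POU2F3, YAP1 and ATOH1. NEUROD1 was at 264, 267 and 271 FPKM and ranked 294 among all protein-coding genes. The replicates differed by less than 3% of their mean. POU2F3 was at 0.05, 0.1 and 0.04 FPKM and YAP1, the co-activator of the Hippo pathway, at 0.03, 0.03 and 0.04 FPKM, the latter resting on 11, 13 and 13 reads. ATOH1, a bHLH factor of Merkel cells and gut secretory cells that leads in rare SCLC, was listed at 0 in every library. NEUROD1 overlapped none of these in any of the 3 libraries, and the data did not go against the labelled subtype.

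**Figure D3:**
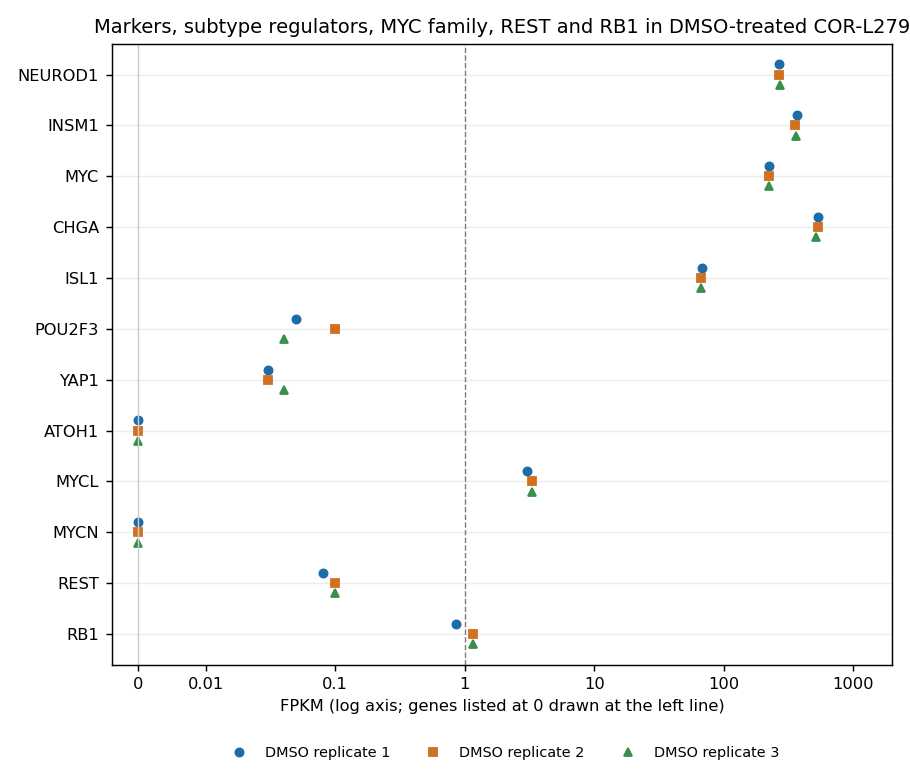
FPKM in each DMSO library (horizontal log axis, genes listed at 0 drawn at the left line, dashed line at 1 FPKM) for the 5 marker genes, other subtype regulators, MYC family members, REST and RB1. The 5 markers sit between 66.0 and 537 FPKM in every library, and ATOH1 and MYCN at 0.

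MYC was the highest of the 3 MYC genes. MYC, the bHLH-zipper factor that drives growth, was at 224, 224 and 222 FPKM and ranked 369 among protein-coding genes. Its replicates were the closest of the 5 markers. MYCL was at 3.02, 3.3 and 3.31 FPKM, and MYC was 69.7 ± 3.89 times as high. MYCN was listed at 0 in all 3 libraries. Of the 12 genes of the MYC family and its partners, 11 were expressed. MAX, which MYC needs as a partner to bind DNA, had 46.3 ± 1.47 FPKM and MLX, the MAX-like protein, 36.2 ± 0.635 FPKM. The antagonists that compete for MAX were lower: MXD4 (21.7), MXI1 (15.8), MNT (14.7), MXD3 (11.95), MGA (4.91) and MXD1 (2.93), all in mean FPKM. The glucose-sensing MLX partner MLXIP was at 16.00 FPKM.

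Of 58 neuroendocrine and neurogenic transcription factors, 39 (67.2%) were expressed, near the 63.5% of all protein-coding genes. The median over the list was 3.86 FPKM. INSM1 headed the list at 367, 355 and 357 FPKM and ranked 213 among protein-coding genes. ID1, a protein that binds bHLH partners and keeps them from DNA, was at 276, 270.1 and 264 FPKM, a range that overlapped that of NEUROD1. HES6, a HES family member that favours neurogenesis, followed at 138 ± 3.62 FPKM, ST18 of the myelin transcription factor family at 131 ± 3.05 and TCF3, an E protein and dimer partner of NEUROD1, at 130.4 ± 4.3. These 3 overlapped one another. ISL1 was at 67.7, 66.4 and 65.98 FPKM. It lay in a middle tier with ID2 (71.9 FPKM), SOX4 (43.4), RFX6 (39.5), MYT1 (36.1) and the E protein TCF4 (34.8).

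Other bHLH relatives were present at lower levels. NEUROD2 was at 27.3, 25.5 and 25.9 FPKM and NEUROD4 at 19.6, 20.5 and 21.0 FPKM, so NEUROD1 was 10.2 ± 0.461 and 13.1 ± 0.301 times as high. NEUROD6 was at 1.2, 0.9 and 0.88 FPKM, around the limit of 1 FPKM. NHLH1 (16.8 FPKM) and NHLH2 (11.9), bHLH factors of developing neurons, were expressed. The neurogenins, which act upstream of NEUROD1 in development, were not: NEUROG2 had 0.31, NEUROG1 0.26 and NEUROG3 0.017 FPKM. REST, the repressor of neuronal genes outside the nervous system, was at 0.08, 0.1 and 0.1 FPKM. ASCL2, ATOH1, LMX1A, POU3F3 and SOX3 were listed at 0 throughout.

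The granule and prohormone programme was the most broadly expressed of the identity lists that hold more than 12 genes, with 36 of 42 members at 1 FPKM or more and a median of 48.1 FPKM. UCHL1 was at 1197, 1168 and 1119.8 FPKM. CHGA was at 537, 528 and 512 FPKM and ranked 158 among protein-coding genes. SCGN, the calcium sensor secretagogin of endocrine cells, was at 475, 470.0 and 454 FPKM. All 3 were highest in replicate 1 and lowest in replicate 3, over a range of less than 7% of the mean. This order was not particular to them, since the FPKM summed over all genes also fell, from 666201 to 660125 and 650096. CHGB, the second chromogranin, had 158 ± 2.28 FPKM, and CHGA was 3.33 ± 0.0565 times as high.

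RNA of the enzymes that mature prohormones was present. PCSK1, a convertase that cuts prohormones, was at 229, 237 and 248 FPKM, and PCSK2, its partner convertase, at 83.5, 86.7 and 86.9 FPKM. CPE, which trims the cut ends, had 242 ± 3.46 FPKM and PAM, which amidates peptides, 219 ± 2.93 FPKM. ENO2, the neuronal enolase, was at 232 ± 0.993 FPKM, SCG2, a granin, at 221 ± 0.427 FPKM and SYP, synaptophysin of small vesicles, at 87.6 ± 0.8 FPKM. Amine synthesis was uneven. DDC, which decarboxylates amine precursors, was at 95.7, 96.1 and 95.4 FPKM, and GCH1, which starts the synthesis of the hydroxylases' cofactor, at 47.7 FPKM. The hydroxylases that make those precursors were under 1 FPKM: TPH1 and TPH2 for serotonin at 0.703 and 0.13, and TH for catecholamines at 0.15. DBH (0.47) and PNMT (0.92), the later catecholamine enzymes, and CHAT (0.013), which makes acetylcholine, were also under it. GAD2 and GAD1, which make GABA, were expressed at 30.3 and 16.1 FPKM.

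Few peptide genes had a high level of RNA. Of 70 hormone and neuropeptide genes, 24 reached 1 FPKM, the median was 0.188 FPKM, and 12 were at 0 throughout. NTS, neurotensin of gut and brain, was at 249, 246 and 244 FPKM, more than 2 times the next gene. GAL, galanin, was at 83.1, 77.9 and 78.97 FPKM and ADCYAP1, the peptide PACAP, at 53.3, 53.6 and 52.4 FPKM. Neuropeptide W (NPW) was at 40.4, 37.8 and 36.8 FPKM and UCN3, a urocortin of islets and brain, at 30.2, 31.1 and 27.8 FPKM. CRH, the hypothalamic hormone that releases ACTH, was at 12.3, 11.4 and 11.9 FPKM, with prolactin (PRL) close behind at 10.4 FPKM. GRP, the bombesin-like peptide long tied to SCLC, was at 2.51, 2.26 and 2.51 FPKM. POMC, the ACTH precursor, was at 0.9, 1.2 and 1.05 FPKM, around the limit. CALCA (0.12 FPKM, calcitonin), VIP (0.087), SST (0.01, somatostatin), INS (0.047, insulin) and GCG (0.147, glucagon) were under 0.2 FPKM, and AVP, FSHB, GALP, GAST and GIP were at 0.

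Set side by side, the RNA levels of peptides and of their receptors gave different combinations. PACAP had its receptor ADCYAP1R1 at 12.03, 12.4 and 14.1 FPKM and the shared receptor VIPR1 at 2.37 FPKM. CRH had CRHR1 at 6.04, 5.17 and 4.87 FPKM, and CRHR2, the receptor of UCN3, was at 1.44 FPKM. GRP had GRPR at 10.2, 11.5 and 11.8 FPKM, while the related NMB (5.43 FPKM) had its receptor NMBR listed at 0 and the orphan relative BRS3 was at 9.04, 8.96 and 8.62 FPKM. Neurotensin was without its G protein coupled receptors: NTSR1 was at 0.057 FPKM and NTSR2 at 0. Galanin had GALR1 at 0.47, GALR2 at 0.137 and GALR3 at 0.027 FPKM, all under 1. Receptors without the ligand also stood out. GIPR, the receptor of the gut hormone GIP, was at 14.4, 15.8 and 14.6 FPKM with GIP at 0, OPRK1, the kappa opioid receptor, at 26.7, 25.8 and 26.4 FPKM with the dynorphin gene PDYN at 0, and KISS1R at 4.97 FPKM with KISS1 at 0.

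**Figure D4:**
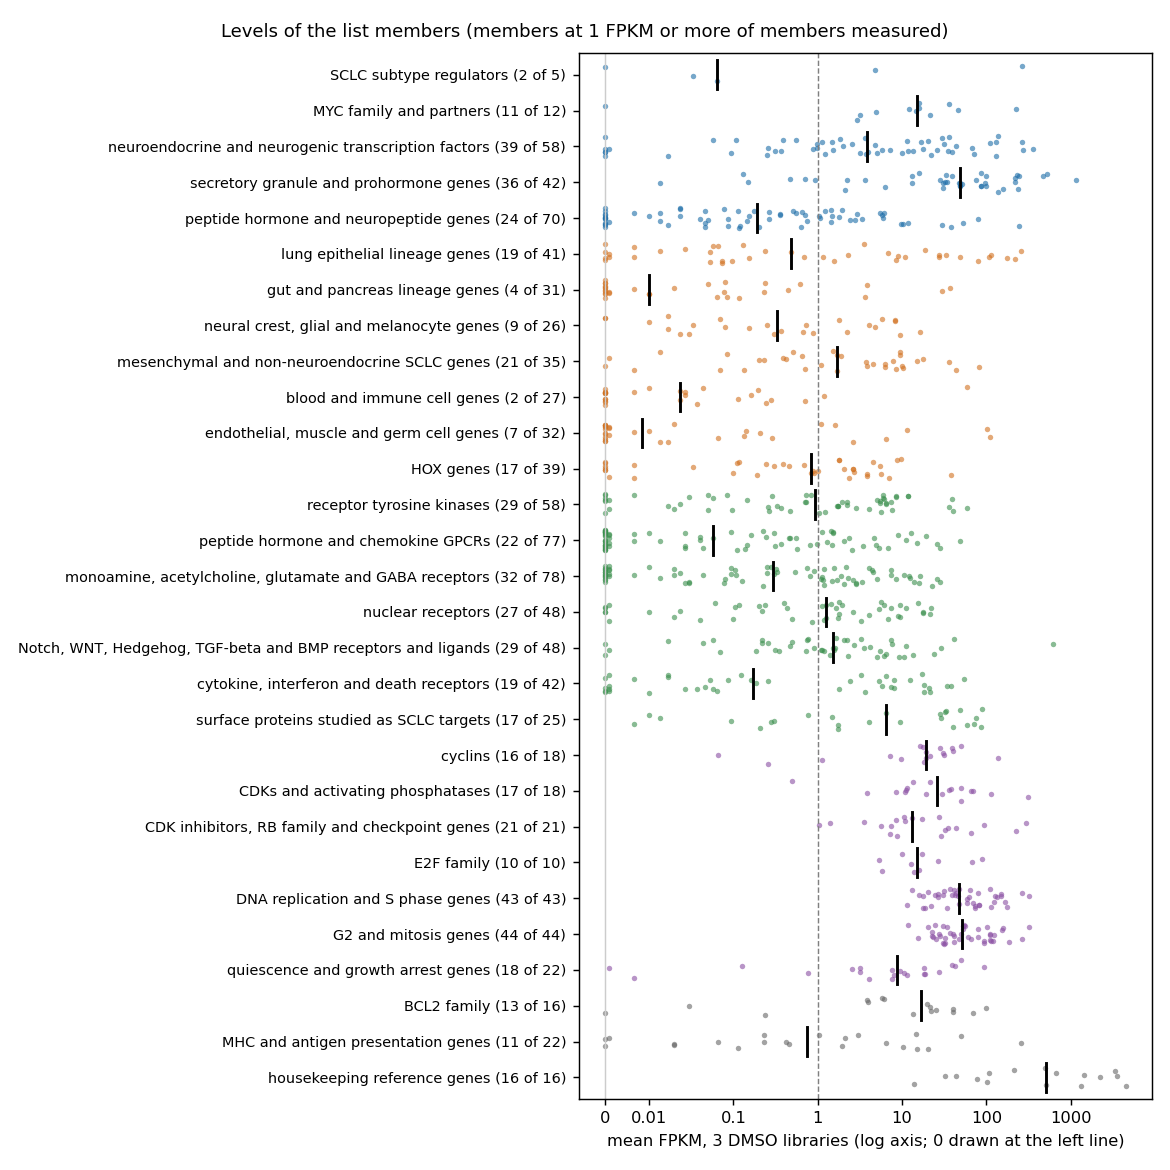
Mean FPKM over the 3 DMSO libraries (horizontal log axis, genes at 0 drawn at the left line, dashed line at 1 FPKM) of each member of 29 gene lists, with the list's median as a vertical bar and the expressed and measured members in brackets. The lists of S phase (43 of 43) and G2 and mitosis genes (44 of 44) lie wholly above 1 FPKM, while blood and immune genes (2 of 27) and gut and pancreas genes (4 of 31) lie mostly below it.

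Of 41 lung epithelial genes, 19 were expressed. KRT8, KRT19 and KRT18, keratins of simple epithelia, were at 255 ± 3.32, 174 ± 4.62 and 114 ± 1.17 FPKM, and EPCAM, an epithelial adhesion molecule, at 220.0 ± 4.11 FPKM. FOXA1, a pioneer factor of endoderm, was at 106, 107 and 109 FPKM, 15.7 ± 0.565 times FOXA2. CLDN7, a tight junction protein, had 80.2 ± 2.41 FPKM, and all 3 claudins listed were at 27.1 FPKM or more. NKX2-1, the factor that specifies lung and thyroid, was at 33.2, 33.3 and 33.1 FPKM. Genes of mature alveolar cells were mixed. ABCA3, the lamellar body transporter of alveolar type 2 cells, was at 27.5, 27.6 and 28.3 FPKM. The surfactant genes, markers of the same cells, all had means under 0.5 FPKM, with SFTPC highest at 0.41, 0.39 and 0.63 FPKM. HOPX and AGER, markers of alveolar type 1 cells, had 8.89 ± 0.429 and 3.58 ± 0.204 FPKM. The secretoglobins SCGB1A1, SCGB3A1 and SCGB3A2 of club cells and the basal keratin KRT14 were at 0. Of the other basal genes, KRT5 had 0.027 FPKM, TP63 2.27 ± 0.05 FPKM and KRT15 8.55 ± 0.708 FPKM.

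Genes of endoderm beyond the lung were mostly under the limit, with 4 of 31 gut and pancreas genes expressed. Of these, 2 had a mean of 10 FPKM or more, the highest at 37.3 FPKM. NKX6-1 and MNX1, homeobox factors of islets and motor neurons, were lower, at 3.8, 3.69 and 4.08 FPKM and 3.86, 3.71 and 3.44 FPKM. Their ranges overlapped. PAX4 and RFX6, islet factors counted among the neurogenic list, were at 17.8 and 39.5 FPKM. PDX1, the pancreas and beta cell factor, was at 0.01 FPKM and none of 6 islet hormone genes reached 1 FPKM. APOB, CDX1, CDX2, GATA4 and GATA5 were at 0 in every library.

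Neural crest, glial and melanocyte genes were expressed in 9 of 26 cases, and the median over the list was 0.333 FPKM. Of the 26, 1 had a mean of 10 FPKM or more. OLIG1, a bHLH factor of oligodendrocytes, led at 16.5, 16.6 and 15.5 FPKM, and TFAP2A, a neural crest factor, was at 9.22, 10.4 and 8.92 FPKM. MBP, SOX9, HAND2 and HAND1 had 8.28, 8.27, 5.75 and 4.78 FPKM. SOX10, the glial and melanocyte factor, was at 0.017, and PHOX2A, a factor of autonomic neurons, at 0.153 FPKM. PRRX1 and TYR were at 0.

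Of 35 mesenchymal and non-neuroendocrine SCLC genes, 21 were expressed, near the share of all protein-coding genes. CD44, a hyaluronan receptor, was at 79.99, 79.9 and 83.4 FPKM, ANXA2 at 43.3 ± 1.18 and TEAD1, the DNA-binding partner of YAP1, at 36.5 ± 3.34 FPKM. VIM, the mesenchymal filament vimentin, was at 10.7, 10.1 and 10.3 FPKM, and EPCAM was 21.2 ± 0.605 times as high. SPARC (17.9 FPKM), COL1A2 (15.2), S100A10 (10.04), TWIST1 (9.54) and SNAI2 (8.47) were expressed. The YAP1 targets CTGF and CYR61 were at 0.07 and 1.51 FPKM, AXL at 0.0033, CAV1 at 0.013 and TWIST2 at 0.

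Markers of other cells were near absent. Apart from KIT, which mast cells share with SCLC, 1 of 26 blood and immune genes reached 1 FPKM, the hemoglobin gene HBA1 at 1.16, 1.23 and 1.21 FPKM, whose near-identical copy HBA2 was at 0.163 FPKM. PTPRC, the CD45 antigen of all leukocytes, was at 0, with CD3D, CD3E, FCGR3A and GATA1. Of 32 endothelial, muscle and germ cell genes 7 were expressed. Of these, 5 were cancer-testis genes, led by MAGEA3 at 113, 112 and 110.1 FPKM and MAGEA6 at 103, 101 and 98.6 FPKM, near-identical neighbours whose reads cannot be split with certainty, then SSX1 at 11.3 ± 0.501, PRAME at 6.4 ± 0.303 and MAGEC2 at 2.6 ± 0.116 FPKM. DES, a muscle filament, had 1.59 ± 0.115 and CLDN5, an endothelial claudin, 1.09 ± 0.036 FPKM. CTAG1B, EMCN, GAGE1, KDR and MAGEA4 were at 0.

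The HOX genes, which record position along the body axis, were split by cluster. Of 39 measured genes 17 were expressed. The A cluster had 8 of 11 above the limit, with HOXA10 highest at 10.4, 9.84 and 8.88 FPKM, and the D cluster 7 of 9, with HOXD13 at 38.2, 38.4 and 37.4 FPKM. In the B cluster 2 of 10 passed, HOXB7 at 5.56 ± 0.764 and HOXB3 at 4.53 ± 0.194 FPKM. In the C cluster all 9 genes were under 0.1 FPKM, with HOXC6 highest at 0.01, 0.06 and 0.03 FPKM. HOXD13, the terminal gene of its cluster, was the highest HOX gene in every library and did not overlap the next.

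Among receptor tyrosine kinases 29 of 58 were expressed, with a median of 0.93 FPKM. KIT, the stem cell factor receptor, was at 57.1, 57.4 and 60.3 FPKM. EPHA8, an ephrin receptor, was at 41.3, 39.7 and 38.5 FPKM, RYK, a WNT co-receptor, at 39.2, 37.5 and 40.02 FPKM and PTK7, another WNT co-receptor, at 35.95, 35.9 and 36.2 FPKM. The ranges of EPHA8 and RYK overlapped. FGFR1 was at 11.9 ± 0.102 and DDR1, a collagen receptor, at 11.8 ± 1.22 FPKM. Of 14 EPH receptors 9 reached 1 FPKM. ALK (8.43 FPKM) and MET (6.43) were moderate, ERBB2 was at 4.06 and EGFR at 0.73, 0.88 and 0.88 FPKM, under 1 in every library. IGF1R had 0.727 and INSR, the insulin receptor, 5.1 FPKM. RET was at 0.0067, and FLT3, FLT4, KDR, NTRK3 and ROS1 were at 0.

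Of 77 peptide hormone and chemokine receptors, 22 were expressed and 23 were at 0. CXCR4, the receptor through which SCLC cells respond to stromal CXCL12, was at 48.2, 49.6 and 50.01 FPKM. It stood alone among the chemokine receptors: of 15, 3 reached 1 FPKM, and CXCR5 and CCR10, the others, had 1.54 and 1.49 FPKM. SSTR2, the somatostatin receptor used for imaging of neuroendocrine tumours, was at 28.8, 27.5 and 27.8 FPKM, 4.16 ± 0.161 times SSTR1. SSTR3 and SSTR5 had 0.04 and 0.04 FPKM and SSTR4 was at 0. TSHR, the thyrotropin receptor, was at 20.5, 18.8 and 18.2 FPKM. GLP1R was at 0.94, 1.14 and 1.31 FPKM, around the limit. The neuropeptide Y receptors NPY1R, NPY2R and NPY5R were all at 0, as were ACKR3, AGTR2, CCR1 and CCR2.

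Transmitter receptors were expressed in 32 of 78 cases. The kainate subunit GRIK3 was at 26.5, 27.8 and 31.1 FPKM and GRIK5 at 25.4, 25.7 and 26.3 FPKM, with no overlap. GABBR2, of the GABA-B receptor, was at 16.03 ± 0.903 FPKM and GABRA2, a GABA-A subunit, at 12.6 ± 0.299 FPKM. Of 13 GABA receptor genes 9 were expressed, the highest at 22.6 FPKM, against 10 of 23 glutamate receptor genes. The nicotinic subunits CHRNB2, CHRNA5 and CHRNA3 had 16.4 ± 0.594, 11.99 ± 0.958 and 10.6 ± 0.832 FPKM, while CHRNA7 was at 0.093 FPKM. The AMPA subunit GRIA1 had 13.7 ± 0.059 FPKM and the dopamine receptor DRD2 8.6 ± 0.383 FPKM. Adrenergic receptors were nearly absent, with ADRB1 at 1.14 ± 0.03 FPKM the only 1 of 9 over the limit. ADRA1D, ADRB3, CHRM1 and CHRM2 were at 0.

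Nuclear receptors were expressed in 27 of 48 cases, at low levels, with the highest at 21.9 FPKM. NR2C1, an orphan receptor, was at 22.1, 23.1 and 20.4 FPKM and RXRB, a retinoid X receptor and common dimer partner, at 21.1, 20.7 and 22.2 FPKM, and they overlapped. NR2F6 (17.7 FPKM), ESRRA (17.5), THRA (15.7), the thyroid hormone receptor alpha, and NR4A1 (10.5 to 11.9) followed. NR3C1, the glucocorticoid receptor, had 4.02 ± 0.075 FPKM. Of the sex steroid receptors, PGR was at 1.69, 1.79 and 1.92 FPKM, ESR2 at 0.85 and ESR1 at 0.0033 FPKM. HNF4A, HNF4G and NR1H4 were at 0.

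In the developmental pathways 29 of 48 receptors and ligands (60.4%) were expressed, near the 63.5% of all protein-coding genes. DLK1, an imprinted Notch ligand relative that does not activate Notch in the usual way, was at 626, 614 and 620.2 FPKM, higher than any other receptor or ligand listed. DLL3, the inhibitory Notch ligand that therapies for SCLC target, was at 29.7, 28.8 and 28.7 FPKM. JAG2 had 23.9 ± 0.742, JAG1 7.32 ± 0.025 and DLL1 5 ± 0.185 FPKM. The Notch receptors were low: NOTCH4 was at 1.35, 1.23 and 1.01 FPKM, NOTCH3 at 0.89, 0.68 and 1.17 FPKM, NOTCH2 at 0.313 FPKM and NOTCH1 at 0.0033 FPKM. The Notch targets HES1 and HEY1 had 1.67 ± 0.062 and 3.23 ± 0.143 FPKM. TGFBR1, the type 1 receptor of TGF-beta, was at 38.7, 42.1 and 44.02 FPKM, whereas the type 2 receptor TGFBR2 had 1.1 ± 0.035 FPKM. ACVR1B, an activin receptor, had 13.5 ± 0.526 FPKM and FZD3, a WNT receptor, 11.2 ± 0.664 FPKM. SHH and BMP7 were at 0.

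Of 42 cytokine, interferon and death receptors 19 were expressed. LEPR, listed at 53.2, 54.8 and 56.4 FPKM, overlaps LEPROT, so its value is uncertain. TNFRSF21, a death receptor of neurons, was at 38.3, 37.4 and 39.9 FPKM. The 4 interferon receptor genes were all present, between 12.4 and 34.5 FPKM, with IFNGR2 highest. IL11RA, IL13RA1 and LIFR had 21.3, 18.2 and 18.00 FPKM. TNFRSF1A, a receptor of tumour necrosis factor, was at 1.78, 2.19 and 1.38 FPKM. The death receptors FAS, TNFRSF10A and TNFRSF10B were lower, at 0.16, 0.087 and 0.027 FPKM, and none of 7 Toll-like receptors exceeded 0.183 FPKM. CSF2RB, IL1R1, PRLR and TLR1 were at 0, PRLR being the receptor of the prolactin named above.

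Surface proteins studied as SCLC targets were expressed in 17 of 25 cases (68.0%), near the 63.5% of all protein-coding genes. CD47, which signals to macrophages, was at 90.3, 90.8 and 88.9 FPKM, the adhesion molecule NCAM1 at 84.5, 82.4 and 93.9 FPKM and SEZ6, a neuronal surface protein, at 75.9, 75.5 and 73.9 FPKM. CD47 and NCAM1 overlapped. PVR, a ligand of immune receptors, was at 72.1, 71.03 and 73.02 FPKM and GPC3, an oncofetal proteoglycan, at 59.8, 60.1 and 59.2 FPKM. CD276 (B7-H3) had 33.6 ± 0.728 FPKM. CD274 (PD-L1) was at 0.17, 0.18 and 0.49 FPKM, under 1 FPKM in every library.

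The cell cycle machinery was expressed almost without gaps: 165 of 172 measured genes reached 1 FPKM and none was at 0 throughout. All 43 DNA replication and S phase genes passed, with a median of 47.8 FPKM, from POLE2, a polymerase subunit, at 11.5 ± 0.562 to PCNA, the polymerase clamp, at 321 ± 6.87 FPKM. MCM7, of the replicative helicase, was at 264 ± 4.78, RRM2, of ribonucleotide reductase, at 174 ± 4.43, MCM4 at 167 ± 17.97, GINS3 at 151 ± 1.21 and TYMS, thymidylate synthase, at 149 ± 4.54 FPKM. All 44 G2 and mitosis genes passed as well, with a median of 50.9 FPKM, from CENPE at 11.6 ± 0.659 to HMGB2, a chromatin protein, at 319 ± 10.5 FPKM. UBE2C, an enzyme that works with the anaphase-promoting complex, was at 264 ± 6.4 FPKM. CKS2 was at 187 ± 5.92, MYBL2 at 156 ± 3.17, CKS1B at 153 ± 4.6 and PRC1 at 122 ± 0.44 FPKM. MKI67, the proliferation antigen, was at 26.8, 28.4 and 30.6 FPKM.

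Of the D cyclins, which start the cycle with CDK4 or CDK6, CCND3 was the main form. CCND3 was at 30.8, 29.5 and 30.9 FPKM, CCND2 at 1.08, 1.19 and 1.13 FPKM and CCND1 at 0.16, 0.23 and 0.38 FPKM. The CCND1 values rest on 45, 46 and 49 reads from libraries of unequal depth. Its normalized count was 42.5 ± 5.83, a smaller relative spread than that of its FPKM, 0.257 ± 0.112. The FPKM ranges of the D cyclins did not overlap, and CCND3 was 26.9 ± 1.89 times CCND2. CDK4 was at 321, 315 and 309.7 FPKM and CDK6 at 35.3, 38.2 and 41.99 FPKM, a ratio of 8.24 ± 0.852. CCNB1, the mitotic cyclin, was at 136 ± 5.39, CCNB2 at 50.3 ± 1.38, CCNF at 40.2 ± 0.531, CCNC at 39.4 ± 1.09 and CCNK at 31.6 ± 1.26 FPKM. The S phase partners CCNE1, CCNE2 and CCNA2 had 16.1, 19.2 and 28.5 FPKM. CCNA1, an A cyclin known from the germ line, was at 21.5, 21.4 and 22.01 FPKM. CDK16, CDK2, CDK1 and CDK9 had 113, 69.7, 65.3 and 49.5 FPKM, and CDC25B, an activating phosphatase, 50.6 FPKM.

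All 21 genes of the list of CDK inhibitors, RB family and checkpoint genes reached a mean of 1 FPKM, but at very different levels. CDKN2A, the locus of the CDK4 inhibitor p16 and of ARF, which the gene-level value does not tell apart, was at 308, 290.4 and 289 FPKM. CDKN2C, another inhibitor of CDK4 and CDK6, was at 230.1, 228 and 225 FPKM, and CDKN1A, the inhibitor p21, at 93.2, 92.2 and 93.2 FPKM. The remaining inhibitors were lower, with CDKN3 (66.1), CDKN2D (32.7), CDKN1B (27.4), CDKN2B (10.8) and CDKN1C (10.5) in mean FPKM. RB1, the pocket protein that restrains E2F, was at the other end at 0.85, 1.15 and 1.15 FPKM, resting on 238, 316 and 299 reads, and its relatives RBL2 and RBL1 had 8.38 ± 0.151 and 3.56 ± 0.248 FPKM. The RB1 values straddle the limit of 1 FPKM, below it in replicate 1 and above it in the others. The ubiquitin ligase MDM2 and its relative MDM4 had 29.1 ± 0.403 and 5.59 ± 0.716 FPKM. CHEK1 (34.7), CHEK2 (17.4), ATR (8.71), ATM (7.43) and TP73 (7.14), of the damage response, filled the middle in mean FPKM. A level of RNA does not tell whether the gene carries a mutation, and no variant was read here.

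**Figure D5:**
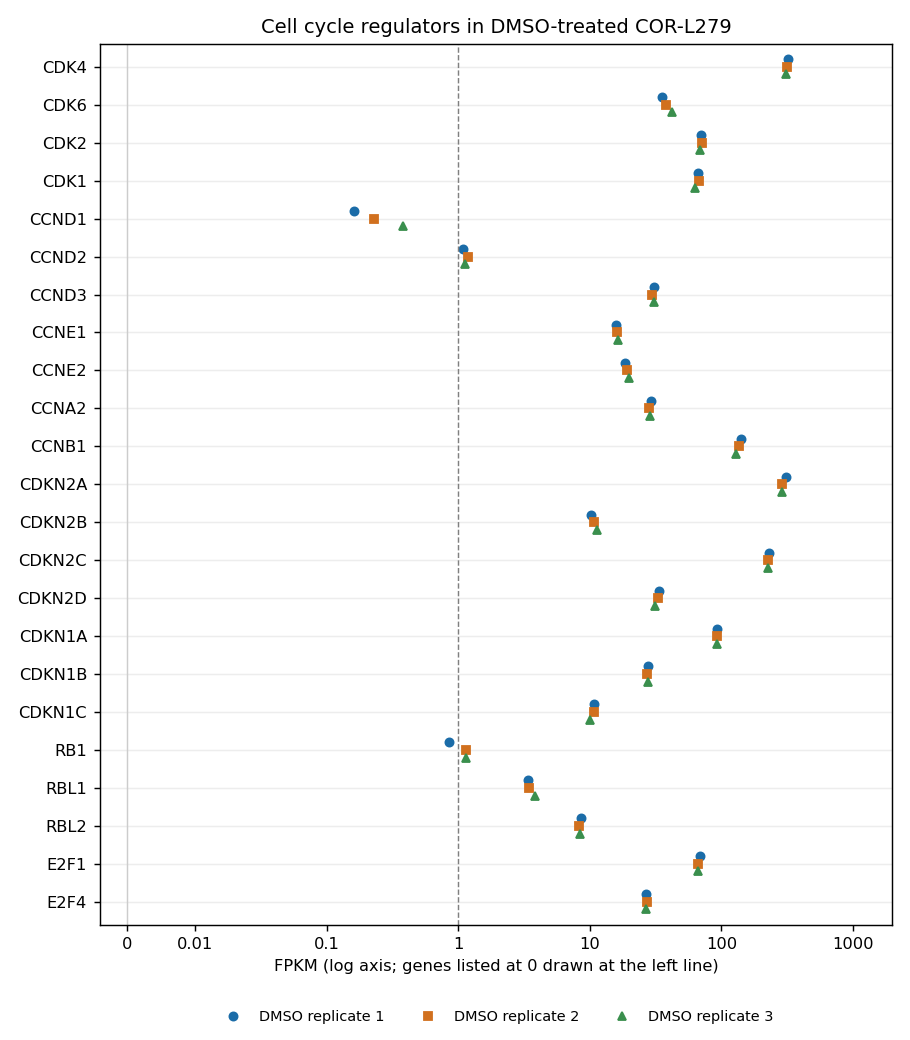
FPKM in each DMSO library (horizontal log axis, dashed line at 1 FPKM) for CDKs, cyclins, CDK inhibitors, the RB family and 2 E2F genes. CDK4, CDKN2A and CDKN2C lie above 200 FPKM, RB1 and CCND2 near 1 and CCND1 under 0.4.

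All 10 E2F family genes were expressed. TFDP1, the dimer partner of the E2Fs, had 87.7 ± 2.98 FPKM and E2F1, an activator of S phase genes, was at 69.03, 66.1 and 66.2 FPKM, 5.27 ± 0.200 times E2F2. E2F4, a repressor form, had 26.8, E2F3 17.2, E2F6 15.9, TFDP2 13.95, E2F2 12.7, E2F5 10.02, E2F8 5.83 and E2F7 5.3 FPKM. Of 22 quiescence and growth arrest genes 18 were expressed, with a median of 8.76 FPKM. GADD45G and GADD45A, stress-induced arrest genes, had 50.4 ± 1.05 and 42.1 ± 1.32 FPKM, BTG2, an antiproliferative gene, 38.9 ± 0.637 and PLK2 18.7 ± 0.94 FPKM. GAS1 and GAS6 were at 0.0067 and 0.0033 FPKM.

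Of the BCL2 family, which sets the threshold for apoptosis, 13 of 16 genes were expressed, and the protective members differed widely in level. BAX, which permeabilises mitochondria, was at 102, 96.8 and 94.6 FPKM. Of the protectors, MCL1 was at 68.6, 71.2 and 71.3 FPKM and BCL2L1 at 39.7, 40.1 and 40.3 FPKM, with BCL2L2 at 21.2 FPKM. BCL2 itself was at 0.04, 0.03 and 0.02 FPKM, and BCL2A1 was at 0. The BH3-only genes BAD, PMAIP1 and BID had 40.03 ± 1.8, 25.6 ± 0.936 and 21.8 ± 1.13 FPKM.

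Antigen presentation was uneven, with 11 of 22 genes expressed. B2M, the light chain of class 1 MHC, was at 265, 266 and 253 FPKM. HLA-C was at 11.2, 9.84 and 9.87 FPKM, while HLA-B was at 0.37, 0.52 and 0.37 FPKM and HLA-E at 0.2, 0.24 and 0.25 FPKM. These heavy chains are close copies that vary between people, so the split among them is uncertain. PSMB10 and PSMB8, immunoproteasome subunits, had 20.5 and 15.1 FPKM, TAPBP 14.8 FPKM and TAP1, a peptide transporter subunit, 1.92 FPKM. All 4 class 2 genes were under 0.1 FPKM, with HLA-DQA1 and HLA-DRB1 at 0. As a reference, all 16 housekeeping genes were expressed, with a median of 503 FPKM, from TBP at 13.9 to GAPDH at 4571 FPKM.

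Host transcripts of microRNAs were looked up as the last group. A microRNA pairs with its targets through its seed, bases 2 to 8. Mature microRNAs were not measured by these libraries, so the levels are of the long host RNA only. Of 20 genes whose symbol marks them as hosts, 10 had a mean of 1 FPKM or more. The share over all noncoding genes was not computed, so this count is not read as high or low. MIR7-3HG, the host of a miR-7 copy, was at 46.4, 42.6 and 47.04 FPKM, MIR4458HG at 26.4, 26.6 and 25.1 FPKM and MIR137HG at 12.4, 6.44 and 6.42 FPKM. The first value of MIR137HG lay far above the other two, with an SD of 3.47 FPKM. MIR503HG had 7.46 ± 0.603 FPKM and MIR17HG, host of the miR-17-92 cluster and a known MYC target, 1.72 ± 0.122 FPKM. MIR143HG, MIR31HG and MIR381HG were at 0. The mature sequences of the neural hosts and of the cluster are shown with the seed in capitals, 5′ to 3′, from RefSeq on GRCh38.p14, to let those that share a seed be seen.
miR-7-5p (chr19:4770700-4770723, plus strand): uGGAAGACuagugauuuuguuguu
miR-137-3p (chr1:98046091-98046113, minus strand): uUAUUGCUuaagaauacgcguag
miR-17-5p (chr13:91350618-91350640, plus strand): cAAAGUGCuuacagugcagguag
miR-20a-5p (chr13:91351072-91351094, plus strand): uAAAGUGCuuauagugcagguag
miR-18a-5p (chr13:91350756-91350778, plus strand): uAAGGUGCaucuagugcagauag
miR-19a-3p (chr13:91350939-91350961, plus strand): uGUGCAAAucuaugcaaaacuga
miR-19b-3p (chr13:91351245-91351267, plus strand): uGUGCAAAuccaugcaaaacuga
miR-92a-3p (chr13:91351361-91351382, plus strand): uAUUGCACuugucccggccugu
Within the MIR17HG cluster, miR-17-5p and miR-20a-5p share the seed AAAGUGC, and miR-19a-3p and miR-19b-3p share GUGCAAA.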

How the data were processed

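Total RNA of COR-L279 cells was sequenced, and the 3 DMSO libraries of 9 were used. Adapters, alignment and quantification were handled with cutadapt, STAR and RSEM on hg19, per the submitters' processing notes, and the libraries were stranded TruSeq libraries, per the labels' protocols. Tool versions, gene annotation and whether counting used strand: not given in the sources used here. Overlapping genes, antisense ones included, are therefore uncertain. The authors deposited FPKM for 57820 genes, rounded to 2 decimals. They also deposited normalized counts for 17518 genes, a signal made by dividing reads by 1 size factor per library. The factors and the choice of genes in that table rest on all 9 libraries. With 1 step per library, 100% of the deposited normalized counts in the DMSO columns came out as whole reads (tolerance 0.001), which gave the reads quoted. The 12 columns of JQ1-treated libraries were not used, and 0 columns belonged to other samples.

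Gene types came from GENCODE 29 by Ensembl ID (52338 matched). No gene positions are given, because the genome at hand is of another build than the files; the promoter and microRNA sequences carry their own. Means and SDs over 3 libraries were computed with pandas 2.3.3 and numpy 2.4.6, and figures with matplotlib 3.10.9. The search for the read step and the spread measure, with a pseudocount of 1, were tested on simulated data. There is 1 group, so no test between groups was run and no p-value is given. The members and lists were chosen with earlier results of these data known. Named are the 5 marker genes, all subtype regulators, CDK inhibitor, RB and checkpoint genes and E2F genes, in each other list up to 6 members with the highest mean and up to 5 at 0 in alphabetical order, the 12 highest protein-coding genes and the 10 with the largest SD; some of these are not reported here. Alternatives were other FPKM minimums, TPM scaling, other pseudocounts, normalized counts in place of FPKM, and each library left out.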

Additional observations from a re-analysis of the deposited data

How the results depend on the processing

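Most counts of expressed members stayed within 1.5 times their value with a minimum of 0.5 or 2 FPKM, with 1 FPKM required in every library, with FPKM rescaled to TPM over protein-coding genes, and with each library left out. With a minimum of 2 FPKM there were 2 exceptions: blood and immune cell genes went from 2 to 1 and nuclear receptors from 27 to 17. NEUROD1 ranked 3 of 58 neuroendocrine and neurogenic factors by mean FPKM, 2 by normalized counts, and 2 to 3 with a library left out; leaving out DMSO replicate 1 gave 2, since its range overlapped that of ID1. The median spread of 0.0435 was 0.0339 with a minimum of 10 FPKM, 0.056 on log2(FPKM + 0.1), and 0.032 to 0.0446 with a library left out. No paired analysis was possible because only 1 group was described. Depth limits the low end: values near 0.05 FPKM rest on few reads, such as 11 to 13 for YAP1, and genes around 1 FPKM, such as RB1 and GLP1R, change sides of the limit between libraries. FPKM also depends on how reads were assigned to transcripts of different length, which read counts do not show.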

Other observations

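Further genes with high levels, chosen after their values were seen, belong to no list above. AGR2, a disulfide isomerase of secretory epithelia, was at 837, 837 and 815 FPKM and ranked 103 among protein-coding genes. PEG10, an imprinted gene derived from a retrotransposon, was at 242, 242 and 246 FPKM and ranked 334. The distal-less homeobox genes DLX5 and DLX6, of forebrain interneurons and skeleton, were at 107, 103 and 106 FPKM and 37.5, 38.6 and 36.6 FPKM. DLX6-AS1, the noncoding RNA on the opposite strand of DLX6, was at 69.6, 72.2 and 74.8 FPKM, higher than DLX6 in every library. Whether the counting used strand is not known, so their split is uncertain.

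Among long noncoding RNA genes with a mean of at least 100 normalized counts, the highest in FPKM was C17orf76-AS1, at 391, 382 and 375 FPKM. RP11-386G11.10, annotated as antisense, was next at 388, 378 and 341 FPKM, and GAS5, a host of small nucleolar RNAs, followed at 228, 218 and 209.7 FPKM. RP5-940J5.9, also antisense, was at 228, 201 and 182 FPKM. The library kit keeps strand, but no label states that the counting used it, so the values of these antisense genes are uncertain. DANCR was at 145, 143 and 135 FPKM, SNHG5 at 127, 123 and 114 FPKM and SNHG1 at 111, 114 and 119 FPKM. SNHG6 was at 133, 98.1 and 96.3 FPKM, with replicate 1 well above the others. MALAT1, a nuclear RNA that is very abundant in many tissues, was at 43.2, 46.9 and 37.6 FPKM, near the level of MIR7-3HG.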
